A study of Schizosaccharomyces pombe with 12 samples.

Results

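The left end of chromosome I of fission yeast was followed through 62 loci, chosen as every entry of the count table whose systematic ID begins with SPAC212, SPAC977, SPAC11D3 or SPAC5H10, the names of the sequenced clones that cover this end, out of 6986 loci in all. SPAC212 gave 12 members, SPAC977 gave 18, SPAC11D3 gave 19 and SPAC5H10 gave 13. Of these, 61 matched the annotation of genome build ASM294v3, 56 as protein-coding genes and 5 as pseudogenes, and they lay between positions 1 and 170055 of chromosome I. The stretch between SPAC977.17, which ends at 69821, and SPAC11D3.19, which starts at 106952, holds loci with other clone names that were not members. The remaining member, SPAC11D3.20, had no entry in that annotation.

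Vegetative h+ cells growing exponentially at 30°C in rich YES medium were the source of the RNA. The 4 strains were wild-type, ppn1∆::HygMX, swd22::HygMX and dis2∆::NatMX, written ppn1Δ, swd22Δ and dis2Δ here, each sequenced as 3 biological replicates, and each mutant lacks 1 gene, replaced by a drug-resistance cassette. Dis2 is a protein phosphatase, and with Ppn1 and Swd22 it forms the DPS module of the cleavage and polyadenylation factor, the complex that cuts pre-mRNA and adds the poly(A) tail. The deleted genes were low in their own strains: ppn1 had 86 to 150 counts in ppn1Δ against 462 to 549 in wild-type, swd22 had 10 to 26 in swd22Δ against 1407 to 1618, and dis2 had 646 to 900 in dis2Δ against 11788 to 12259. Libraries held 17616688 to 23435936 counts. Levels below are normalized counts, scaled to a library of 20838181 counts, given per library in the order of replicates 1, 2 and 3, and differences are log2 values of mutant minus wild-type ± the standard error of the fit (n = 3 libraries per strain). The adjusted p values come from the quasi-likelihood test of edgeR, corrected by the Benjamini-Hochberg method for 6110 tested loci.

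Subtelomeres are the stretches next to the telomeric repeats. In fission yeast their outer parts carry heterochromatin, which keeps genes silent, and are built of blocks of sequence repeated at several chromosome ends, while the parts further in hold genes that respond to nutrients and stress. Genes repeated at several ends pose a problem for short reads, because a read from such a gene can fit several places. Each member was therefore also described by the share of its annotated exons' 51-base words, the length of 1 read, that occur once in the genome.

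Sequences show how closely some members match loci at other ends. The dehydrogenase gene ayr2 (SPAC977.08) is shown because it had 0 counts in every library. Its 711 coding bases are identical to those of SPBC1348.09 at the left end of chromosome II, and the first 60 of them follow, from ASM294v3, both on the plus strand, at chrI:44704-44763 and chrII:24916-24975, with no capitals because no base differs.
ayr2: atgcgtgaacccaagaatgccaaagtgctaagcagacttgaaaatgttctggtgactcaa
SPBC1348.09: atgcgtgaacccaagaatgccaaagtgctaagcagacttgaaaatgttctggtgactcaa

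The 372 coding bases of SPAC212.12, which encodes a GPI-anchored protein and was lower in ppn1Δ and swd22Δ, are likewise identical to SPAC750.07c at the right end of chromosome I. The first 60 bases follow, at chrI:15855-15914 on the plus strand and chrI:5575505-5575564 on the minus strand.
SPAC212.12: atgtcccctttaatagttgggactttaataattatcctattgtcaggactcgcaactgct
SPAC750.07c: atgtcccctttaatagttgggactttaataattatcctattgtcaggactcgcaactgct

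The fluoride channel gene fex1 and its copy fex2 at the left end of chromosome II share a run of 930 of their 936 coding bases. Their first 60 coding bases are at chrI:55274-55333 on the plus strand and chrII:56726-56785 on the minus strand, and the capital marks the position that differs.
fex1: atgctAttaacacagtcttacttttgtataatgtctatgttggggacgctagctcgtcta
fex2: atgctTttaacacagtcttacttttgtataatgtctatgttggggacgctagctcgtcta

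The ftm2 gene (SPAC977.02), for a protein with a transmembrane helix, is shown because its level fell in ppn1Δ and rose in dis2Δ. It has relatives of the same 441 coding bases at the 3 other ends: ftm3 (SPAC750.04c, right end of chromosome I) is identical over all 441, ftm6 (SPBC1348.03, left end of chromosome II) over a run of 436, and ftm7 (SPBPB2B2.17c, right end of chromosome II) over a run of 247. A window of 60 bases follows, at chrI:32379-32438 and chrII:10718-10777 on the plus strand and chrI:5564443-5564502 and chrII:4502188-4502247 on the minus strand, with the differing position in capitals.
ftm2: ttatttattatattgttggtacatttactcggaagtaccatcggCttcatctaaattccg
ftm6: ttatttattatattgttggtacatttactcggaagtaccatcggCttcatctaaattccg
ftm3: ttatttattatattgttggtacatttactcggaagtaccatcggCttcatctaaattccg
ftm7: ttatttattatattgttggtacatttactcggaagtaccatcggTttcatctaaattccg

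Last, the glycoprotein gene pfl6 (SPAC977.07c), which rose in dis2Δ, shares a run of 767 of its 1251 coding bases with SPBC1348.08c at the left end of chromosome II. The windows at chrI:42525-42584 and chrII:22747-22806, both on the minus strand, hold 1 differing position, in capitals.
pfl6: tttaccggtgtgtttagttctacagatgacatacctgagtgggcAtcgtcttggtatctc
SPBC1348.08c: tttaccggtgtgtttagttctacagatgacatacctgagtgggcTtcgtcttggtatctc

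The members fell into a nearly silent outer stretch and an expressed inner stretch, and the border lay at nhe1 (SPAC977.10), the gene of the sodium ion/proton antiporter of the plasma membrane, which starts at 51989. Of the 22 members outside nhe1, 2 had a mean wild-type level of at least 100, and of the 39 annotated members from nhe1 inward 33 did. Median wild-type level was 4.95 outside, with a range of 0 to 219, and 727 from nhe1 inward, with a range of 17.5 to 22705. Per kb of annotated exon the medians were 7.13 and 326, beside 665 over all 5107 coding genes. The change of uniqueness lay at the same place: 21 of the 22 outer members had under 50% unique words, and 36 of the 39 inner ones had 100%. In these data low level and repeated sequence cannot be told apart for the 21 repeated outer members. The unique one, the pseudogene SPAC212.07c, was low as well, with 9.80 to 13.4 in wild-type.

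**Figure D1:**
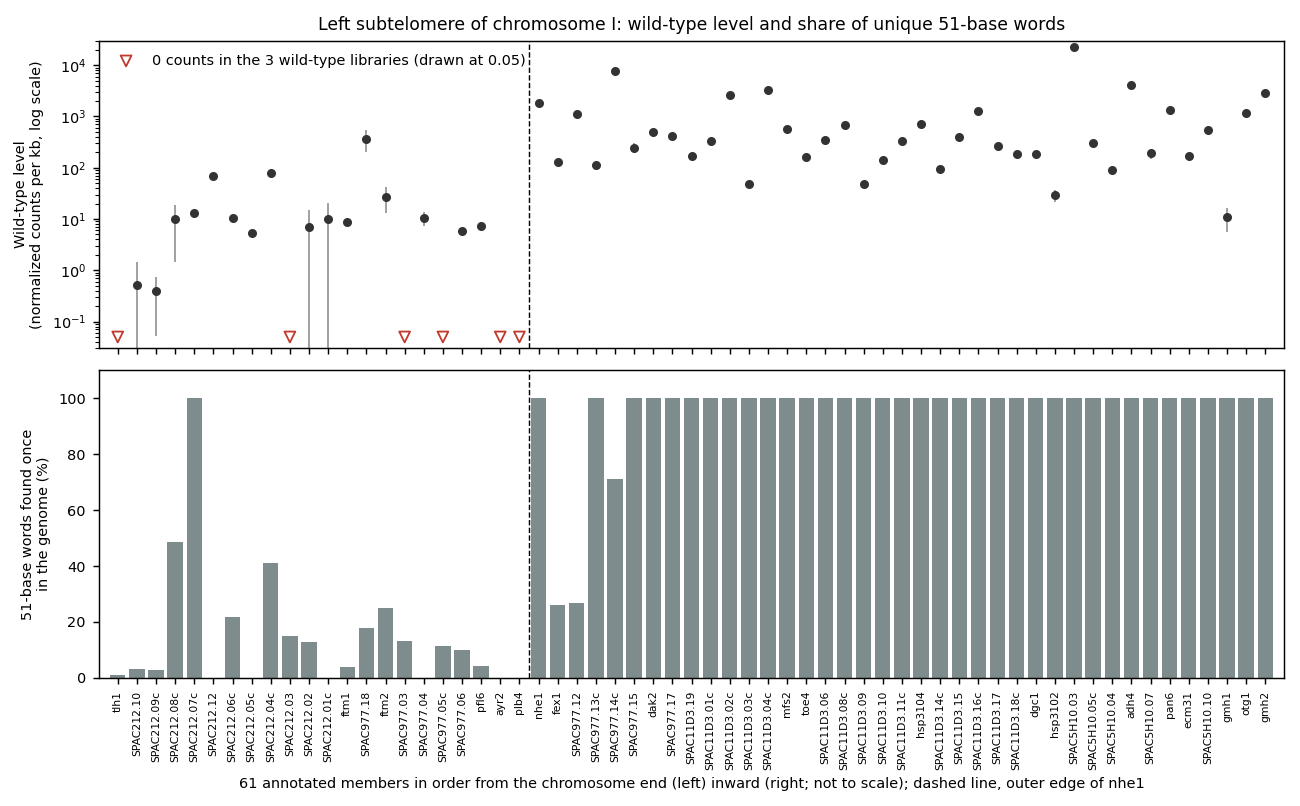
Wild-type level per kb of exon on a log axis (mean of 3 libraries, bars SD, open triangles at the foot for the 6 members at 0) above the percentage of 51-base words found once in the genome, for the 61 annotated members in order from the chromosome end inward. The 22 members left of nhe1 sit low and are mostly repeated, and the 39 from nhe1 inward are expressed and mostly unique.

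In the whole genome such repeats were less common. Of the 61 annotated members 23 (37.7%) had under 50% unique words, beside 281 of the 6729 other annotated loci (4.18%). The exceptions along the end were few: SPAC212.07c, in the outer stretch, was 100% unique, and 3 loci in the inner stretch were not. These were fex1 at 25.9%, its neighbor SPAC977.12, an L-asparaginase gene, at 26.7%, and SPAC977.14c, an aldo-keto reductase gene, at 71.2%.

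Copies of the outermost members lay mainly at the right end of chromosome II. The gene at the very end, tlh1 (SPAC212.11), which encodes a RecQ type DNA helicase, shared 99.1% of its words with tlh2 there, and the pseudogenes SPAC212.10 and SPAC212.09c shared 96.8% and 97.2% with SPBCPT2R1.10 and SPBCPT2R1.07c. For SPAC212.01c the figure was 93.3%, with SPBCPT2R1.04c, and SPAC212.08c, for a GPI-anchored protein, shared 48.8% with SPBCPT2R1.06c. Of the remaining SPAC212 loci under 50% unique, SPAC212.05c shared 78.9% with SPBCPT2R1.05c, SPAC212.04c 39.2% with SPBCPT2R1.04c, SPAC212.03 85.0% with both SPBC1348.15 and SPBCPT2R1.03, and SPAC212.02 85.0% with SPBCPT2R1.02. The helicase-like gene SPAC212.06c shared 26.5% of its words with tlh1 at its own end and with tlh2. For most loci closer to nhe1, the single annotated locus that shared most words lay at the left end of chromosome II: ftm1 (SPAC977.01) shared 92.0% with SPBC1348.02, ftm2 65.6% with ftm6, and pfl6 95.8% with SPBC1348.08c. The same held for the methyltransferase gene SPAC977.03 (86.9% with SPBC1348.04), SPAC977.04 (91.2% with SPBC1348.05), SPAC977.06 (74.4% with SPBC1348.07), ayr2 (92.5% with SPBC1348.09) and the phospholipase gene plb4 (96.8% with SPBC1348.10c). SPAC977.05c shared 88.5% both with SPBC1348.06c there and with SPBPB2B2.15, and SPAC977.12 shared 73.3% with SPBPB8B6.05c. Counted over whole ends, annotated or not, other ends held as many or more of the words of some of them. For ftm2 the right end of chromosome I held 73.3%, for SPAC977.04 both right ends held 94.5%, and for SPAC977.06 the right end of chromosome II held 89.8%, while for ftm1 and SPAC977.03 the right end of chromosome II equaled the left one.

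At the outer end 9 members had at most 4 counts in every library. The dehydrogenase gene ayr2 was at 0 counts in all 12, which allows up to 3 counts in each library taken alone, and its copy SPBC1348.09 had 1 count in all. In wild-type, 6 members were at 0 in all 3 libraries: tlh1, SPAC212.03, SPAC977.03, SPAC977.05c, ayr2 and the phospholipase gene plb4. The helicase gene tlh1 was at 0 in wild-type, ppn1Δ and dis2Δ and at 2, 3 and 0 counts in swd22Δ. Each of these is within the 3 counts that a 0 in 1 library allows, but tlh1 was not tested for a difference between strains. Its copy tlh2 had 6, 12 and 10 counts in wild-type and 3 to 12 in the mutants. Low counts left 13 members untested: tlh1, SPAC212.10, SPAC212.09c, SPAC212.05c, SPAC212.03, SPAC212.02, SPAC977.03, SPAC977.04, SPAC977.05c, SPAC977.06, ayr2, plb4 and SPAC11D3.20. The other 49 entered the test, 10 of the outer stretch and all 39 annotated members of the inner one.

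The highest wild-type levels per kb were at SPAC5H10.03, a gene of the phosphoglycerate mutase family, with 22480 ± 1150 (SD, n = 3) normalized counts per kb, and at SPAC977.14c with 7548 ± 1046. Next came adh4, an alcohol dehydrogenase gene, with 4026 ± 263, then SPAC11D3.04c, for a protein with a polyketide cyclase domain, with 3237 ± 54.2, and the galactosyltransferase gene gmh2 with 2892 ± 140. Each of these 5 means lay above the next by more than the larger of the SDs of the pair. At SPAC5H10.03 and SPAC11D3.04c no mutant passed against wild-type, though in a fit of the strains compared alone SPAC5H10.03 passed in dis2Δ (0.16, adjusted p = 0.043). SPAC11D3.04c had 2712, 2622 and 2669 normalized counts in wild-type and 2498 to 2827 in the 9 mutant libraries, a spread that overlaps in all 4 strains.

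Over the whole end, the summed level of the 62 members was 73135 to 75019 in wild-type, 66653 to 70144 in ppn1Δ, 72091 to 75366 in swd22Δ and 81306 to 83821 in dis2Δ, 0.334% to 0.392% of the library. On this scale the ppn1Δ libraries all lay below the wild-type range, but as shares of the library (0.334% to 0.358%) they overlapped that of wild-type (0.342% to 0.359%). The dis2Δ libraries lay above wild-type on both (0.387% to 0.392%). The outer 22 members summed to 353 to 552 in wild-type, 238 to 294 in ppn1Δ, 208 to 255 in swd22Δ and 514 to 808 in dis2Δ. Here ppn1Δ and swd22Δ lay below every wild-type library, and 1 dis2Δ library overlapped the wild-type range. In wild-type the largest terms of the outer sum were SPAC977.18, at 138 to 331, and SPAC212.04c, at 90.3 to 132. SPAC977.18, with 17.7% unique words, was at 29.1 to 50.96 in ppn1Δ, 41.8 to 63.4 in swd22Δ and 210 to 455 in dis2Δ. SPAC212.04c overlapped wild-type, at 88.7 to 151 in the mutants. The outer sums thus rest in large part on SPAC977.18 and do not describe a fall of the outer stretch as a whole. Whether the strains differ in the outer sum without SPAC977.18 was not tested.

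In ppn1Δ, 9 of the 49 tested members were higher and 17 lower than in wild-type at an adjusted p of at most 0.05, where 24.5% of all tested loci were higher and 25.2% lower. The median difference of the members was -0.10, beside 0.01 over all tested loci. By the cutoffs of the study, which also ask for a 2-fold change and for a mean level of 100 or more normalized counts in 1 of the strains compared, 1 member was higher (1.67% of all tested loci) and 2 were lower (1.78%). In swd22Δ 6 members were higher and 14 lower (19.3% and 20.5% of all tested loci), with a median difference of -0.05, and by the study's cutoffs 2 were higher and 2 lower (1.55% and 1.72%). In dis2Δ 18 members were higher and 8 lower (19.5% and 21.8%), with a median difference of 0.12, and by the study's cutoffs 2 were higher and 1 lower (1.75% and 1.03%). The counts that stand furthest from the share of all loci are the 17 of 49 (34.7%) lower in ppn1Δ and the 18 of 49 (36.7%) higher in dis2Δ. The 3 mutants share the wild-type libraries.

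**Figure D2:**
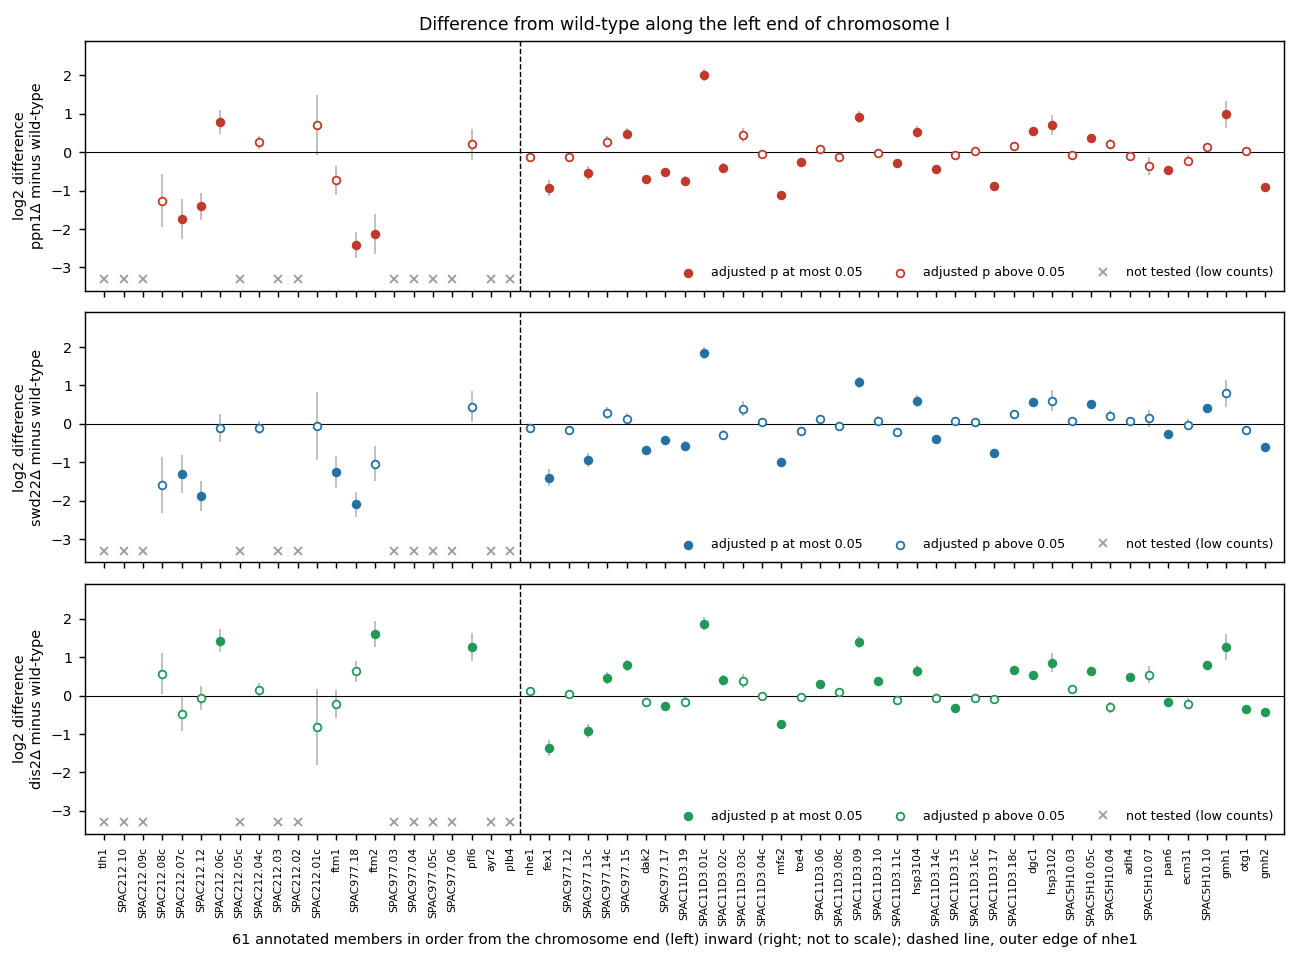
The log2 difference from wild-type (edgeR fit, bars ± standard error) in ppn1Δ, swd22Δ and dis2Δ for the 49 tested members in order from the chromosome end, with filled points at an adjusted p of at most 0.05 and crosses for the untested. Filled points lie on both sides of 0 in each mutant, with 17 below in ppn1Δ and 18 above in dis2Δ.

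Taken over the 3 mutants, which share the wild-type libraries, 5 of the 49 members were higher in each and 6 were lower in each, beside 10.3% and 11.9% of all tested loci. Lower in ppn1Δ and swd22Δ alone were 7 (5.14% of all), and higher in dis2Δ alone were 6 (4.04%). The pair ftm2 and SPAC11D3.02c was lower in ppn1Δ and higher in dis2Δ (0.573% of all), and 13 of the 49 passed in no mutant (33.9% of all). The antiporter gene nhe1 was among these 13, with 3162, 3151 and 3444 in wild-type, 2898 to 3087 in ppn1Δ, 2917 to 3048 in swd22Δ and 3425 to 3712 in dis2Δ.

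The largest rise with the same call in every mutant was that of SPAC11D3.01c, a short gene of the Con-6 family, a family first named for a conidiation gene of the mould Neurospora. Its normalized counts were 160, 166 and 114 in wild-type, 539, 571 and 679 in ppn1Δ, 458, 646 and 469 in swd22Δ and 539, 492 and 587 in dis2Δ. Every mutant library lay above every wild-type library. The differences were 2.02 ± 0.16, 1.84 ± 0.16 and 1.88 ± 0.16 (adjusted p = 2.6e-08, 1.3e-07 and 9.4e-08), between 3.57-fold and 4.06-fold. All of its 51-base words are unique, and no pair of mutants differed past the threshold.

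The agmatinase gene SPAC11D3.09, an enzyme that splits agmatine into putrescine and urea, also rose in each mutant. It had 65.1, 65.1 and 57.7 normalized counts in wild-type, 125, 126 and 105 in ppn1Δ, 125, 139 and 134 in swd22Δ and 178, 171 and 145 in dis2Δ. No mutant library overlapped wild-type, and the dis2Δ libraries lay above all those of the other mutants. Differences were 0.91 ± 0.15, 1.08 ± 0.15 and 1.39 ± 0.15 (adjusted p = 8.8e-05, 2.2e-05 and 1.2e-06), and dis2Δ exceeded ppn1Δ by 0.48 ± 0.13 (adjusted p = 0.013).

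Smaller rises were those of hsp3104, dgc1 and SPAC5H10.05c in each mutant and of hsp3102 and SPAC5H10.10 in some. The glyoxalase III gene hsp3104 (SPAC11D3.13), of the family that detoxifies methylglyoxal, had 731, 929 and 717 in wild-type, 1213, 812 and 1392 in ppn1Δ, 1275, 967 and 1372 in swd22Δ and 1149, 1260 and 1282 in dis2Δ. Only ppn1Δ replicate 2 fell inside the wild-type range. The differences were 0.53 ± 0.16, 0.60 ± 0.16 and 0.63 ± 0.16 (adjusted p = 0.011, 0.0061 and 0.0042), and without ppn1Δ replicate 3 that of ppn1Δ fell to 0.36 and no longer passed. In its paralog hsp3102 (SPAC5H10.02c) the levels were lower, 22.4, 34.5 and 21.8 in wild-type, 42.4 to 44.2 in ppn1Δ, 30.7 to 54.2 in swd22Δ and 37.4 to 55.4 in dis2Δ. It passed in ppn1Δ (0.71 ± 0.26, adjusted p = 0.032) and in dis2Δ (0.86 ± 0.26, adjusted p = 0.014). The ppn1Δ call was lost without any 1 of the ppn1Δ replicates or of wild-type replicates 1 and 3 (0.59 to 0.72), and the dis2Δ call without dis2Δ replicate 3 or wild-type replicates 1 or 3 (0.74 to 0.77). For swd22Δ, the same-numbered libraries of wild-type and mutant were taken as pairs from the data, not from the labels. Values with this block are an alternative setting chosen on the same counts. In swd22Δ hsp3102 passed with the replicate block fitted to those 6 libraries (0.60, adjusted p = 0.050) and not without it (0.61, adjusted p = 0.077). It also passed there without swd22Δ replicate 1 (0.77) or wild-type replicate 2 (0.86).

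The D-glutamate cyclase gene dgc1 (SPAC5H10.01) had 216, 210 and 214 in wild-type against 309 to 316 in ppn1Δ, 283 to 341 in swd22Δ and 288 to 325 in dis2Δ. It rose by 0.55 ± 0.10, 0.58 ± 0.10 and 0.52 ± 0.10 (adjusted p = 0.00033, 0.00027 and 0.00068). The oxidoreductase gene SPAC5H10.05c rose by 0.37 ± 0.08, 0.51 ± 0.08 and 0.63 ± 0.08 (adjusted p = 0.0013, 7.7e-05 and 1.0e-05). Its annotated transcript overlaps that of SPAC5H10.04, an NADPH dehydrogenase gene on the opposite strand, over 2078 bases, and the setting of the counting for strand is not given in the sources used here. SPAC5H10.04 passed against wild-type in no mutant (0.21 ± 0.13, 0.22 ± 0.14 and -0.31 ± 0.14). A second NADPH dehydrogenase gene, SPAC5H10.10, had 1095, 998 and 900 in wild-type, 1081 to 1124 in ppn1Δ, 1246 to 1395 in swd22Δ and 1658 to 1781 in dis2Δ. Its rise passed in swd22Δ (0.42 ± 0.07, adjusted p = 0.00022) and dis2Δ (0.80 ± 0.07, adjusted p = 2.8e-07).

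Falls in every mutant included those of a transporter gene and a galactosyltransferase gene. The falls of fex1 and SPAC977.13c in every mutant are given further below. The transporter gene mfs2 (SPAC11D3.05), of the major facilitator family, had 1103, 1088 and 1183 in wild-type, 527, 468 and 552 in ppn1Δ, 565, 541 and 600 in swd22Δ and 706, 688 and 640 in dis2Δ. No mutant library reached the wild-type range, and the dis2Δ libraries lay above those of the other mutants. The differences were -1.12 ± 0.08, -0.98 ± 0.08 and -0.73 ± 0.08 (adjusted p = 1.5e-08, 9.6e-08 and 2.7e-06). Between mutants, dis2Δ was higher than ppn1Δ by 0.39 ± 0.08 (adjusted p = 0.002) and than swd22Δ by 0.25 ± 0.08 (adjusted p = 0.042).

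**Figure D3:**
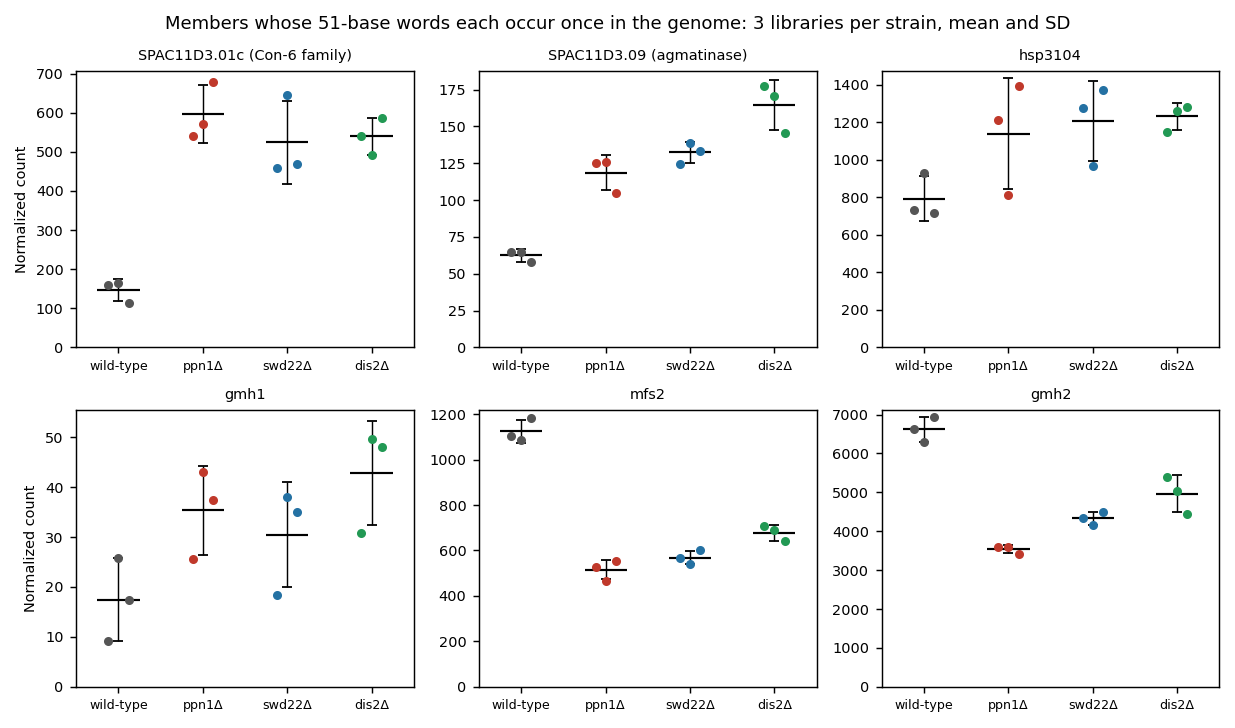
Normalized counts of 6 members whose 51-base words each occur once in the genome, 3 libraries per strain as points with the mean and SD, on linear axes from 0. SPAC11D3.01c and SPAC11D3.09 lie above wild-type in all 9 mutant libraries, mfs2 and gmh2 lie below it in all 9, and hsp3104 and gmh1 overlap wild-type in at least 1 library.

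The innermost members are 3 galactosyltransferase genes, whose enzymes add galactose to glycoproteins in the Golgi. In gmh2 (SPAC5H10.13c) the levels were 6636, 6296 and 6937 in wild-type, 3587, 3594 and 3413 in ppn1Δ, 4339, 4172 and 4502 in swd22Δ and 5394, 5041 and 4454 in dis2Δ. It fell by 0.91, 0.61 and 0.42 on the log2 scale, each with a standard error of 0.07 (adjusted p = 1.6e-08, 2.1e-06 and 0.00011). The ppn1Δ libraries lay below those of every other strain, and the difference from swd22Δ was itself past the threshold (0.30 ± 0.07, adjusted p = 0.016). The neighboring otg1 (SPAC5H10.12c) had 2319, 2227 and 2291 in wild-type and 1897, 1681 and 1811 in dis2Δ, a fall of 0.34 ± 0.06 on the log2 scale (adjusted p = 0.00018). In ppn1Δ otg1 differed by 0.04 ± 0.06. In swd22Δ its value of -0.15 ± 0.06 had an adjusted p of 0.051 without the replicate block and 0.017 with the block fitted to the wild-type and swd22Δ libraries, where the estimate was -0.16. It also passed without swd22Δ replicate 1 (-0.18) and without dis2Δ replicate 1 or 2 (-0.15 each).

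The third of them, gmh1 (SPAC5H10.11), was low: 9.15, 25.8 and 17.4 in wild-type, 25.6, 43.0 and 37.4 in ppn1Δ, 18.4, 38.0 and 35.1 in swd22Δ and 30.8, 49.6 and 48.1 in dis2Δ. Wild-type replicate 2 overlapped the range of ppn1Δ and swd22Δ. The rise was 0.99 ± 0.35 in ppn1Δ (adjusted p = 0.027) and 1.27 ± 0.35 in dis2Δ (adjusted p = 0.0074). The ppn1Δ call was lost without ppn1Δ replicates 2 or 3 or wild-type replicates 1 or 3 (0.70 to 0.98). In swd22Δ the value was 0.79 ± 0.36 with an adjusted p of 0.093, and 0.79 with an adjusted p of 0.031 with the replicate block fitted to the wild-type and swd22Δ libraries. It also passed there without swd22Δ replicate 1 (1.05) or wild-type replicate 2 (1.21). The transcripts of gmh1 and otg1 overlap on opposite strands over 522 bases.

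Vitamin synthesis was represented by pan6 and ecm31, neighbors that encode enzymes of pantothenate synthesis. In pan6 (SPAC5H10.08c) the counts were 1570, 1457 and 1523 in wild-type, 1125, 1103 and 1075 in ppn1Δ, 1265, 1295 and 1255 in swd22Δ and 1361, 1390 and 1315 in dis2Δ. All mutant libraries lay below wild-type, by 0.46, 0.25 and 0.16 on the log2 scale (standard error 0.06 each), and each fall passed (adjusted p = 6.3e-06, 0.0022 and 0.033). In ecm31 (SPAC5H10.09c) no mutant passed, with differences of -0.23 ± 0.15, -0.02 ± 0.14 and -0.21 ± 0.15.

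Glycerol metabolism gave a pair that fell in ppn1Δ and swd22Δ. The dihydroxyacetone kinase gene dak2 (SPAC977.16c), for a step in glycerol use, had 1045, 1022 and 1125 in wild-type, 645 to 659 in ppn1Δ, 582 to 729 in swd22Δ and 923 to 987 in dis2Δ. It differed by -0.70 ± 0.08, -0.68 ± 0.08 and -0.15 ± 0.08 (adjusted p = 3.0e-06, 5.9e-06 and 0.14). Its neighbor on the opposite strand, SPAC977.17, overlaps it by 454 bases and encodes a channel protein of the family that holds aquaporins and glycerol channels. SPAC977.17 had 1459 to 1541 in wild-type and fell by 0.52, 0.42 and 0.27 (adjusted p = 2.6e-05, 0.00026 and 0.0074).

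Transcription factor genes changed little or fell. SPAC11D3.17, of the fungal zinc cluster type, had 650, 637 and 646 in wild-type, 342, 370 and 343 in ppn1Δ, 351, 420 and 368 in swd22Δ and 656, 616 and 560 in dis2Δ. It fell by 0.87 ± 0.09 and 0.76 ± 0.09 in the first pair of mutants (adjusted p = 9.5e-07 and 6.1e-06), and in dis2Δ it differed by -0.08 ± 0.09, 0.80 ± 0.09 above ppn1Δ. The factor gene toe4 (SPAC11D3.07c) passed in ppn1Δ (-0.25 ± 0.09, adjusted p = 0.03), as did SPAC11D3.11c, for a truncated factor (-0.28 ± 0.10, adjusted p = 0.025). The annotated transcript of toe4 contains all 1851 bases of SPAC11D3.06, a transporter gene on the opposite strand, which passed in dis2Δ (0.29 ± 0.08, adjusted p = 0.011).

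Several inner genes rose in dis2Δ without a call in the other mutants. For adh4 (SPAC5H10.06c) the levels were 6445, 5655 and 6052 in wild-type, 5417 to 6010 in ppn1Δ, 5814 to 7029 in swd22Δ and 8802, 8438 and 8215 in dis2Δ. The dis2Δ libraries stood above all others, and the difference from wild-type was 0.49 ± 0.07 (adjusted p = 5.2e-05). The carboxylic acid transporter gene SPAC11D3.18c rose by 0.66 ± 0.12 (adjusted p = 0.00037) and the cysteine desulfurase family gene SPAC11D3.10 by 0.37 ± 0.11 (adjusted p = 0.013). SPAC977.14c had 7995, 10566 and 9269 in wild-type, 11810, 7758 and 13957 in ppn1Δ, 11932, 9185 and 12476 in swd22Δ and 11866, 13057 and 13481 in dis2Δ. Its dis2Δ value was 0.46 ± 0.16 (adjusted p = 0.025), a call lost without dis2Δ replicates 2 or 3 or wild-type replicates 1 or 3 (0.38 to 0.46) and with DESeq2 (0.47, adjusted p = 0.055). In ppn1Δ the value of 0.27 ± 0.16 passed once replicate 2, the low library, was left out (0.47, adjusted p = 0.0043). SPAC977.14c shares 28.8% of its words with SPAC750.01 at the right end of chromosome I.

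The members with copies elsewhere included the largest falls, and how reads shared with the copies entered their counts is not known. SPAC977.18, an uncharacterized gene with 17.7% unique words, had 138, 187 and 331 in wild-type, 43.9, 50.96 and 29.1 in ppn1Δ, 63.4, 41.8 and 48.2 in swd22Δ and 353, 455 and 210 in dis2Δ. All 6 libraries of ppn1Δ and swd22Δ lay below wild-type, while dis2Δ overlapped it. The differences were -2.42 ± 0.34 (adjusted p = 1.9e-05), -2.09 ± 0.33 (adjusted p = 8.4e-05) and 0.64 ± 0.27 (adjusted p = 0.071). Without dis2Δ replicate 3 the last was 0.89 and without wild-type replicate 3 it was 1.06, and both then passed, as did 0.64 in a fit of the strains compared alone (adjusted p = 0.035). Compared directly, dis2Δ exceeded ppn1Δ by 3.06 ± 0.33 (adjusted p = 2.7e-06) and swd22Δ by 2.73 ± 0.32 (adjusted p = 1.4e-05).

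Words of SPAC977.18 occurred at the right end of chromosome I and the left end of chromosome II (76.3% each) and at the right end of chromosome II (78.7%). There SPBPB2B2.18 shared 27.2% of them, and it had 78, 172 and 236 counts in wild-type, 10 to 26 in ppn1Δ, 9 to 11 in swd22Δ and 24, 303 and 204 in dis2Δ. At the right end of chromosome I, 8 loci named SPAC750 summed to 1384 to 1967 counts in wild-type, 22 to 26 in ppn1Δ, 10 to 14 in swd22Δ and 2236 to 2864 in dis2Δ. The low counts in ppn1Δ and swd22Δ reached further in, to loci of unique sequence: SPAC186.05c, the locus 13 places from that end when non-coding RNA loci are left out, had 8737 counts over the 3 wild-type libraries, 304 in ppn1Δ, 73 in swd22Δ and 12898 in dis2Δ. Further in the pattern ended, with 513, 1618, 1521 and 2337 at SPAC186.01. Over the whole span of that end 21 loci were higher and 15 lower of 50 tested in ppn1Δ, beside 24.5% and 25.2% of all tested loci. Whether the outermost DNA of the right end of chromosome I is present in the ppn1Δ and swd22Δ strains cannot be told from RNA counts and was not tested. This bears on every member with copies there, among them SPAC977.18, ftm1, ftm2 and SPAC212.12, and the part of those copies in the members' values was not tested.

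**Figure D4:**
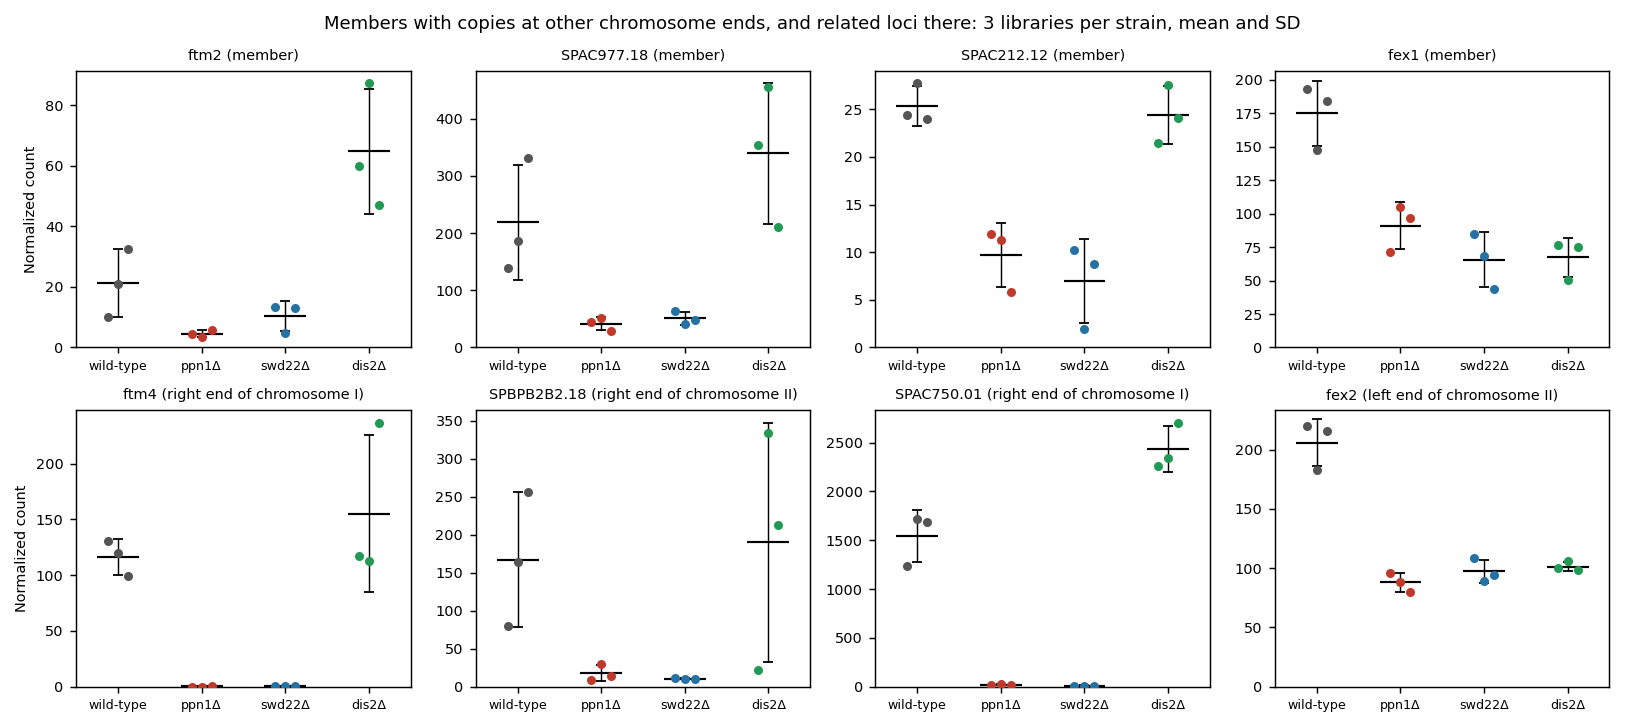
Normalized counts of 4 members with copies at other chromosome ends (top) and of 4 loci at those ends (bottom), 3 libraries per strain as points with the mean and SD, on linear axes from 0. SPBPB2B2.18 and fex2 share words with SPAC977.18 and fex1. In contrast, ftm4 shares words with ftm1, and SPAC750.01 with SPAC977.14c, members that are not drawn. The identical copies of ftm2 (ftm3) and SPAC212.12 (SPAC750.07c) are not drawn either. The ppn1Δ and swd22Δ libraries of SPAC977.18 and SPAC212.12 lie below wild-type, and so do those of ftm4, SPBPB2B2.18 and SPAC750.01, while fex1 and fex2 lie below wild-type in all 3 mutants.

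The ftm2 gene differed most between mutants. It had 10.2, 21.1 and 32.7 in wild-type, 4.58, 3.40 and 5.82 in ppn1Δ, 13.3, 4.75 and 13.1 in swd22Δ and 59.8, 87.2 and 47.0 in dis2Δ. The ppn1Δ libraries lay below wild-type and the dis2Δ libraries above it, and swd22Δ overlapped wild-type. The differences were -2.14 ± 0.51 (adjusted p = 0.0025), -1.04 ± 0.45 (adjusted p = 0.075) and 1.60 ± 0.33 (adjusted p = 0.0011), and without wild-type replicate 1 that of swd22Δ was -1.37 and passed. Between mutants, dis2Δ exceeded ppn1Δ by 3.74 ± 0.43 and swd22Δ by 2.64 ± 0.38 (adjusted p = 5.4e-06 and 0.00012). Of its words 25.0% are unique. The related ftm3 and ftm6 had 0 to 3 and 0 to 6 counts in the 12 libraries.

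Its neighbor ftm1 had 10.2, 12.4 and 11.97 in wild-type, 5.49, 3.40 and 10.8 in ppn1Δ, 4.09, 4.75 and 5.48 in swd22Δ and 10.3, 11.03 and 8.36 in dis2Δ. Only the fall in swd22Δ passed among the mutants (-1.26 ± 0.42, adjusted p = 0.024). It was lost without swd22Δ replicates 1 or 2 or wild-type replicates 2 or 3 (-1.25 to -1.16) and with DESeq2 (-1.27, adjusted p = 0.11). The ppn1Δ value of -0.74 ± 0.38 passed without ppn1Δ replicate 3 (-1.32). The relative ftm4 at the right end of chromosome I, with which it shares 86.3% of its words, had 91 to 128 counts in wild-type, 0 to 1 in ppn1Δ, 1 in each swd22Δ library and up to 226 in dis2Δ.

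SPAC212.12 had 24.4, 27.8 and 23.9 in wild-type, 11.9, 11.3 and 5.82 in ppn1Δ, 10.2, 1.90 and 8.76 in swd22Δ and 21.5, 27.6 and 24.04 in dis2Δ. Libraries of ppn1Δ and swd22Δ lay below those of wild-type and dis2Δ without overlap. It fell by 1.41 ± 0.36 and 1.88 ± 0.39 on the log2 scale (adjusted p = 0.0035 and 0.00092), and in dis2Δ it differed by -0.07 ± 0.30. The direct differences of dis2Δ were 1.34 ± 0.36 above ppn1Δ (adjusted p = 0.0095), which fell to 1.05 and no longer passed without ppn1Δ replicate 3, and 1.81 ± 0.39 above swd22Δ (adjusted p = 0.0037). None of its words is unique, and its identical copy SPAC750.07c, printed beside it above, had 0 counts in all 12 libraries. How reads that fit both copies were assigned is not given in the sources used here.

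Other outer members were near the limit of counting. SPAC212.07c, a pseudogene and the outer stretch's member of unique sequence, had 12.2, 13.4 and 9.80 in wild-type, 4.58, 4.53 and 1.66 in ppn1Δ, 8.19, 3.80 and 2.19 in swd22Δ and 14.0, 5.52 and 5.23 in dis2Δ. It differed by -1.74 ± 0.52 in ppn1Δ (adjusted p = 0.011) and -1.30 ± 0.50 in swd22Δ (adjusted p = 0.047). The first call was lost without ppn1Δ replicate 3 (-1.36). The other was lost without ppn1Δ replicates 1 or 2 (-1.30 each), swd22Δ replicates 2 or 3 (-1.15 and -0.99) or any wild-type replicate (-1.41 to -1.19), and with DESeq2 (-1.31, adjusted p = 0.13).

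The helicase-like gene SPAC212.06c had 8.14, 8.61 and 9.80 in wild-type, 16.5, 11.3 and 17.5 in ppn1Δ, 8.19, 8.56 and 7.67 in swd22Δ and 18.7, 25.4 and 28.2 in dis2Δ. In dis2Δ it rose by 1.43 ± 0.30 (adjusted p = 0.001) and exceeded swd22Δ by 1.54 ± 0.30 (adjusted p = 0.0019). Of its words 21.8% are unique and 71.2% occur at the right end of chromosome II, so its counts may hold reads from there. The ppn1Δ value of 0.79 ± 0.32 (adjusted p = 0.047) held without dis2Δ replicate 1 or ppn1Δ replicate 2 and was lost without each of the other 10 libraries (0.67 to 0.86). It was lost with DESeq2 as well (0.78, adjusted p = 0.19).

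SPAC212.08c had 1.02, 15.3 and 8.71 in wild-type, 1.66 to 6.41 in ppn1Δ, 0.951 to 4.38 in swd22Δ and 13.1, 15.4 and 9.41 in dis2Δ. The test found dis2Δ above ppn1Δ by 1.83 ± 0.63 (adjusted p = 0.037) and above swd22Δ by 2.16 ± 0.68 (adjusted p = 0.034), and no mutant passed against wild-type. Without wild-type replicate 1, the low one, the differences from wild-type were -1.77 in ppn1Δ and -2.11 in swd22Δ, and both passed. The ppn1Δ contrast was lost without dis2Δ replicates 1 or 2 or ppn1Δ replicates 2 or 3 (1.45 to 1.80) and with DESeq2 (1.87, adjusted p = 0.066), and that with swd22Δ without dis2Δ replicates 1 or 2 or swd22Δ replicates 1 or 2 (1.73 to 2.25). The glycoprotein gene pfl6 had 7.12, 10.5 and 9.80 in wild-type and 28.0, 16.5 and 20.9 in dis2Δ, without overlap, and rose by 1.26 ± 0.36 (adjusted p = 0.01), a call lost without dis2Δ replicate 1 (1.02). It exceeded ppn1Δ by 1.05 ± 0.34 (adjusted p = 0.029), lost without dis2Δ replicates 1 or 3 or ppn1Δ replicate 2 (0.75 to 1.08) and with DESeq2 (1.08, adjusted p = 0.087). Of the words of pfl6 4.25% are unique and 95.8% occur in its relative SPBC1348.08c, so the counts of pfl6 may hold reads of that locus. SPBC1348.08c had 0 to 2 counts in wild-type, 3 to 9 in ppn1Δ, 4 to 6 in swd22Δ and 30 to 49 in dis2Δ. That locus was called higher in each mutant (2.34, 2.29 and 5.15, adjusted p = 0.011, 0.017 and 3.0e-07).

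The fluoride channel gene fex1 (SPAC977.11) fell in every mutant, and so did the counts of its copy. It had 193, 147 and 184 in wild-type, 71.4, 105.3 and 96.5 in ppn1Δ, 84.9, 68.5 and 43.8 in swd22Δ and 76.6, 50.8 and 75.2 in dis2Δ. No mutant library overlapped wild-type. Differences were -0.94 ± 0.21, -1.40 ± 0.22 and -1.36 ± 0.22 (adjusted p = 0.0013, 7.1e-05 and 9.8e-05). The copy fex2 had 191 to 216 counts in wild-type, 78 to 105 in ppn1Δ, 86 to 106 in swd22Δ and 94 to 107 in dis2Δ. The copies share 74.1% of the words of fex1, so the counts of each may hold reads of the other.

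Beside fex1 lies SPAC977.12, whose 26.7% of unique words is close to that of fex1, and it did not pass in any mutant (-0.11 ± 0.07, -0.16 ± 0.07 and 0.05 ± 0.07). Its relative SPBPB8B6.05c, which shares 73.3% of its words, differed by -0.44, -0.44 and -0.05 (adjusted p = 0.00017, 0.00026 and 0.64). The pseudogene SPAC977.13c next to SPAC977.12 is unique, with 73.2, 106 and 98.0 in wild-type, 54.9 to 72.3 in ppn1Δ, 45.0 to 52.3 in swd22Δ and 48.1 to 50.5 in dis2Δ. It fell by 0.54 ± 0.17, 0.95 ± 0.18 and 0.91 ± 0.18 (adjusted p = 0.016, 0.00051 and 0.00073), and the ppn1Δ call was lost without ppn1Δ replicate 1 or wild-type replicates 2 or 3 (-0.50 to -0.42).

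In the direct comparison with ppn1Δ, 3 of the 49 members were higher in swd22Δ and 0 were lower, where 5.27% of all tested loci were higher and 1.05% lower, so that the members' count lay near the share of all loci. They were pan6 (0.21 ± 0.06), SPAC5H10.10 (0.28 ± 0.07) and gmh2 (0.30 ± 0.07), with adjusted p of 0.042, 0.032 and 0.016. Without single libraries this count ran from 0 to 3, with the 0 reached without ppn1Δ replicate 3 or swd22Δ replicate 3, and 1 without dis2Δ replicate 2 or any other ppn1Δ or swd22Δ library.

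Between dis2Δ and ppn1Δ, 24 members were higher in dis2Δ and 3 were lower (16.1% and 12.6% of all tested loci), and between dis2Δ and swd22Δ 16 were higher and 3 lower (9.71% and 8.87%). The 3 lower members were the same in both comparisons: otg1, the oxoprolinase gene SPAC11D3.15 and SPAC5H10.04. These comparisons share the dis2Δ libraries. The acetyltransferase family gene SPAC11D3.02c had 1865, 1887 and 1715 in wild-type, 1349, 1259 and 1512 in ppn1Δ, 1189, 1969 and 1294 in swd22Δ and 2307, 2386 and 2614 in dis2Δ. It fell in ppn1Δ by 0.41 ± 0.13 and rose in dis2Δ by 0.42 ± 0.13 on the log2 scale (adjusted p = 0.016 each), and swd22Δ replicate 2 stood apart from the other libraries of its strain, above the wild-type range. The dis2Δ level exceeded that of ppn1Δ by 0.82 ± 0.13 (adjusted p = 0.00015) and that of swd22Δ by 0.71 ± 0.13 (adjusted p = 0.0011).

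Counting every locus outside the non-coding RNA series over the span of 170055 bases, whatever its clone name, this end gave 23 higher and 9 lower of 57 tested loci in dis2Δ. The other ends gave 27 and 5 of 50 at the right end of chromosome I, 34 and 3 of 41 at the left end of chromosome II, and 22 and 4 of 45 at its right end. In ppn1Δ the 4 ends, in that order, gave 12 and 19, 21 and 15, 19 and 5, and 20 and 12, and in swd22Δ 9 and 16, 19 and 13, 14 and 9, and 15 and 5. Over all tested loci 19.5% were higher and 21.8% lower in dis2Δ, 24.5% and 25.2% in ppn1Δ, and 19.3% and 20.5% in swd22Δ. Higher loci outnumbered lower ones in dis2Δ at all 4 ends, so this was not particular to the left end of chromosome I. Whether the ends differ was not tested.

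Several of the remaining members fell or rose without standing apart in size. The dienelactone hydrolase gene SPAC977.15 had 209.5, 278.5 and 184 in wild-type, 340, 258 and 336 in ppn1Δ, 231 to 258 in swd22Δ and 365 to 427 in dis2Δ, and passed in ppn1Δ (0.48 ± 0.14, adjusted p = 0.011) and dis2Δ (0.79 ± 0.14, adjusted p = 0.00032). The uncharacterized SPAC11D3.19 had 253, 220 and 247 in wild-type and 123 to 161 in ppn1Δ, and fell in ppn1Δ and swd22Δ (-0.75 ± 0.13 and -0.56 ± 0.13, adjusted p = 0.00013 and 0.0019). Of the oxoprolinase genes, for enzymes that open the ring of 5-oxoproline to give glutamate, SPAC11D3.14c fell in ppn1Δ and swd22Δ (-0.44 ± 0.11 and -0.39 ± 0.11) and SPAC11D3.15 in dis2Δ (-0.32 ± 0.06).

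SPAC212.04c, the other outer member above a mean of 100, had 109.9, 132 and 90.3 in wild-type and 88.7 to 151 in the mutants, and passed in none. SPAC212.01c ranged from 1.91 to 19.3 within wild-type and from 3.33 to 36.2 within ppn1Δ, and passed in none. SPAC11D3.20, without an annotation entry and untested, had 5.44 to 6.10 in wild-type, 7.93 to 11.6 in ppn1Δ, 6.57 to 10.2 in swd22Δ and 3.74 to 8.36 in dis2Δ. Of all members, 21 overlap another locus of the table and 19 of these do so on the opposite strand. Among them dgc1, SPAC11D3.18c and SPAC5H10.10 are overlapped by non-coding loci over 1158, 1571 and 1666 bases, so reads of either strand may have entered their counts.

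Genes of chromatin and telomere factors were also read, as a list of 34 telomere proteins, heterochromatin factors and histone-modifying or histone-exchange factors, all tested. The list holds factors of opposite roles, such as clr4, the histone methyltransferase of heterochromatin, and epe1, which opposes heterochromatin. In ppn1Δ 5 were higher and 4 lower, in swd22Δ 2 and 3, and in dis2Δ 1 and 7, with medians of -0.04, -0.02 and -0.06, and 0 changed 2-fold or more. Each of these shares lies below that of all tested loci given above. Called lower in every mutant were epe1 (-0.52, -0.21 and -0.28) and msc1 (-0.50, -0.34 and -0.36). The telomere protein gene pot1 was called higher in every mutant (0.40, 0.49 and 0.48). A list of 15 genes of nitrogen starvation and stress gave 5 higher and 3 lower in ppn1Δ, 6 and 5 in swd22Δ and 3 and 7 in dis2Δ, shares above those of all tested loci except for the lower ones in ppn1Δ. Its members went both ways, and ntp1 and gpx1 passed in no mutant. Within it, ste11, the master regulator of mating genes, differed by -2.59, -2.32 and -1.76, and hsp16, a small heat shock protein gene, by 2.19, 2.53 and 1.82.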

How the data were processed

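Poly(A)+ RNA libraries were made with a strand-marking kit and sequenced as paired reads. The authors mapped the reads with HISAT2 2.1.0 and counted them with HTSeq 0.10.0 on PomBase exons of ASM294v2, and the deposited values are raw counts per locus, neither normalized nor filtered. Settings for strand and for reads that fit several places are not given in the sources used here. The 6987 entries gave 6986 loci, since 1 ID had 2 entries, which were summed. Positions, products and sequences are from RefSeq's annotation of ASM294v3. No position was converted between builds.

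After filterByExpr and TMM scaling, the 6110 loci left were fitted over all 12 libraries by the quasi-likelihood method of edgeR 4.0.16 (R 4.3.3), and p-values were adjusted by Benjamini and Hochberg's method. TMM factors ran from 0.9575 to 1.069 and the common dispersion was 0.005626, a biological coefficient of variation of 7.5%. On simulated data with 200 changed loci of 6110, edgeR called 99, 100 and 99 of 100 4-fold and 97, 96 and 95 of 100 2-fold changes for ppn1Δ, swd22Δ and dis2Δ, and 9, 11 and 9 others. The changed loci were drawn at random from all tested loci, so these rates do not describe members of low count. Replicates differed by more than sampling noise in every pair (chi-square per degree of freedom 5.38 to 23.6). Same-numbered libraries deviated together in 9 of 18 pairs (correlation over 0.1), and in all 3 pairs only of wild-type with swd22Δ (0.147, 0.44 and 0.347). Between wild-type and swd22Δ, libraries of unlike number gave -0.433 to 0.2. Elsewhere some libraries of unlike number deviated together more strongly, such as wild-type 2 with ppn1Δ 3 (0.693) and ppn1Δ 1 with swd22Δ 3 (0.542). For wild-type and swd22Δ the number was taken as a pairing, from the data and not from the labels, and the blocked value is printed where it changed a call. The same counts gave the pairing and the test, so the blocked p values are no separate support for a call.

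Members and lists were chosen with earlier results of these data known. The loci named were the 5 largest rises and falls per mutant that passed, those past the study's cutoffs, the 5 of highest wild-type level per kb, tlh1, those at least 2-fold different between mutants, those under 50% unique, and those at 0. Others were named for their role in a pathway, after their values were seen. Alternatives were DESeq2 1.42.0, relative log expression factors, other filters, the strains compared alone, the replicate block, each library left out, no mean-count cutoff, a test against 2-fold and longer words. Tables used Python 3.11.15, pandas 2.3.3, numpy 2.4.6 and matplotlib 3.10.9.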

Additional observations from a re-analysis of the deposited data

Results flagged for a closer look

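The log2 difference of ftm2 (SPAC977.02) between dis2Δ and ppn1Δ was 3.74. It stood out because the gene moved in opposite directions in the mutants, with every ppn1Δ library below and every dis2Δ library above wild-type, and the direct test of dis2Δ against ppn1Δ passed.

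The log2 difference of SPAC11D3.02c between dis2Δ and ppn1Δ was 0.82. It stood out for the same reason: the ppn1Δ libraries lay below wild-type, the dis2Δ libraries lay above it, and the direct test passed. All words of this gene are unique, but the non-coding locus SPNCRNA.608 on the opposite strand covers its 684 annotated bases.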

How the results depend on the processing

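Counts by adjusted p alone stayed within 1.5 times of those reported under DESeq2, relative log expression factors, both filters, the strains compared alone and the replicate block, with an exception: the members different between swd22Δ and ppn1Δ fell from 3 to 1 with the strains compared alone. By the study's cutoffs, dropping the mean-count cutoff gave 5 lower members in ppn1Δ, 5 lower in swd22Δ and 6 higher in dis2Δ, beside 2.77%, 2.95% and 3.52% of all tested loci. A test against 2-fold (glmTreat) left 1 lower in ppn1Δ, 1 higher and 1 lower in swd22Δ, and 1 higher and 0 lower in dis2Δ (0.786%, 0.687%, 0.573%, 0.851% and 0.409% of all tested loci). Restricted to members of fully unique sequence, a setting chosen after seeing the data, 1 was lower in ppn1Δ and 0 in swd22Δ and dis2Δ. With library totals alone as the scale, the members' mean summed level was 72971 in wild-type, 71558 in ppn1Δ and 81301 in dis2Δ. The cause was not tested in any of these. With longer words 21 members were under 50% unique.

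With the replicate number as a block for all strains, the members called in swd22Δ were 7 higher and 14 lower (19.2% and 20.7% of all tested loci), and with the block in wild-type and swd22Δ only, chosen after seeing the data, 8 and 17 (23.7% and 26.4%). Beyond the values given for hsp3102, gmh1 and otg1 it changed no call of a named locus in swd22Δ. The block for all strains removed the ppn1Δ call of SPAC212.06c (0.78, adjusted p = 0.062), where the numbers were not taken as a pairing.

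Leaving out each library in turn gave 5 to 9 higher members in ppn1Δ (5 without wild-type replicate 3), 1 to 2 by the study's cutoffs (2 without ppn1Δ replicate 3), 1 to 2 lower by those cutoffs in dis2Δ (2 without wild-type replicate 1), and 0 to 3 different between swd22Δ and ppn1Δ. Of the 984 fits of named loci with a library left out, 915 kept direction and side of the threshold, 55 lost the call and 14 gained it.

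Of the calls of named loci, DESeq2 removed 6, 5 of them at outer members. The cause was not tested.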
